A study of Solanum lycopersicum with 9 samples.

Results

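Tomato genes known to set fruit size, fruit shape and the number of locules were followed in the young locular tissue of fruits with and without edits in SlZFP2, a zinc finger transcription factor. The group was set by a list of gene identifiers whose rule applies no measured value, though the list was drawn up with earlier results of these data known, and all 8 members were found among the 34075 genes of the count table. They are FW2.2, SlKLUH and CSR for size, OVATE, SUN and OFP20 for shape, and WUSCHEL and CLV3 for locule number. Locular tissue is the gel that surrounds the seeds, and in the dwarf cultivar Micro-Tom it was dissected by hand from fruits 6 days after anthesis, with the developing seeds removed. The wild type (WT) and 2 CRISPR-edited lines of SlZFP2, c2.5 and c2.11, each gave 3 libraries of stranded mRNA, and each library pooled tissue of 6 fruits. All 3 genotypes share the Micro-Tom background. The sources used here do not give the allele of each line, the number of founder plants or whether the pools came from separate plants or days. If pools share plants, a p-value reflects pool-to-pool spread alone.

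Fruit size in tomato depends on how many cells the ovary wall and its inner tissues make and on how far these cells then enlarge. FW2.2 is a small membrane-associated protein that restrains cell division in the carpel, and the alleles of small- and large-fruited tomatoes differ in when and how strongly the gene is transcribed. SlKLUH, the gene at the fw3.2 locus, encodes a cytochrome P450 of the CYP78A family that increases cell number, and CSR, the gene at fw11.3, promotes cell enlargement in the fruit wall. OVATE and OFP20 belong to the ovate family proteins, which limit elongation of the ovary, whereas SUN, a calmodulin-binding IQ-domain protein, promotes elongation when it is strongly expressed. WUSCHEL is the homeodomain factor that maintains stem cells in the shoot and floral meristem, and CLV3 is the secreted peptide that restrains WUSCHEL. Regulatory changes near WUSCHEL and CLV3 underlie the lc and fas loci, at which flowers form more carpels and fruits more locules.

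The 9 libraries held between 19963325 and 20727310 counts, and a library detected 22331 to 22960 genes. The test used 19358 genes that passed a filter on low counts. Of the 8 members, 4 passed it (FW2.2, SlKLUH, OVATE and OFP20) and 4 did not (SUN, CSR, WUSCHEL and CLV3), beside 43.2% of all genes that did not pass. The edited gene itself is reported as Solyc07g053570.4, a pairing from general knowledge. It was counted 11 to 21 times in WT, 15 to 31 times in c2.5 and 30 to 49 times in c2.11 libraries, so its transcript was not lower in the lines, and its level does not check the edits. The log2 difference from WT was 0.76 for the pair of lines (edgeR adjusted p = 0.0487), a weak call that 6 of the 9 removals of single libraries ended (highest adjusted p = 0.173). By line it was 1.04 in c2.11 (edgeR adjusted p = 0.0190) and 0.48 in c2.5, which did not pass (edgeR adjusted p = 0.276). The call in c2.11 held in 6 of the 9 removals (highest adjusted p = 0.0887). Between the lines the difference of 0.56 did not pass (edgeR adjusted p = 0.442). The table gives identifiers without names, so markers of locular, seed, epidermal or vascular tissue could not be matched and the dissection was not checked against them. Levels below are normalized CPM, that is, counts relative to a library size scaled by TMM. After this scaling the median log2 difference from WT over all tested genes was 0.006 in c2.5 and 0.007 in c2.11. Levels are not divided by transcript length and are compared only within a gene.

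In both lines together FW2.2 and OVATE were lower and OFP20 was higher than in WT, and SlKLUH did not pass the threshold (edgeR quasi-likelihood test, p-values adjusted by Benjamini-Hochberg over all tested genes, threshold 0.05). These are 3 of the 4 members that could be tested, beside 57.1% of all tested genes, of which 28.5% were higher and 28.6% lower, so the share says little about the members. When libraries were scaled by their total count instead of TMM, the median of all tested genes moved from 0.01 to 0.29 on the log2 scale. The 3 called members were then FW2.2, which was lower, and OFP20 and SlKLUH, which were higher, so the split changed from 1 higher and 2 lower to 2 higher and 1 lower. Over all genes that split was 5523 higher and 5529 lower with TMM and 10754 higher and 2940 lower with total count scaling. FW2.2 and OFP20 passed the threshold in the same direction under both scalings, while OVATE and SlKLUH did not.

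**Figure D1:**
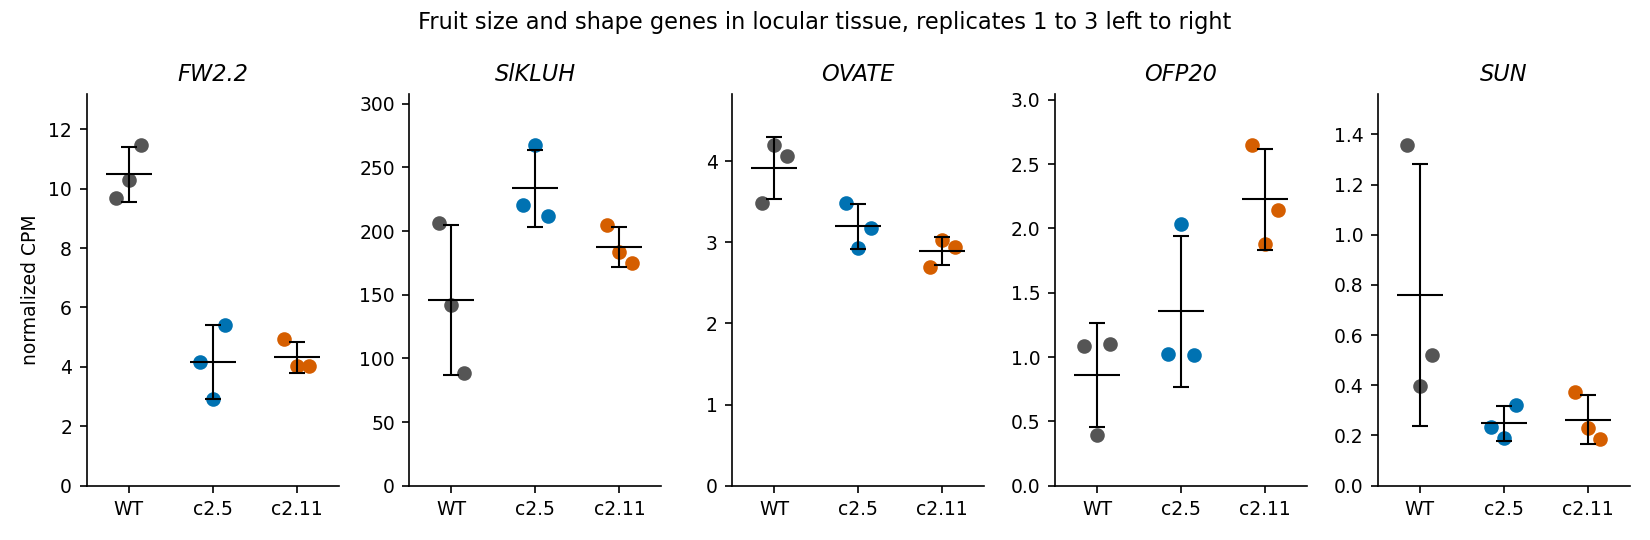
Normalized CPM (vertical axis, from 0) of the 5 members with counts in every library, by genotype. Points are the 3 libraries of a genotype with replicates 1 to 3 from left to right, the long bar is their mean and the whiskers are 1 SD. FW2.2 lies between 9.68 and 11.5 in WT and between 2.93 and 5.39 in the lines, whereas the WT points of SlKLUH spread from 88.8 to 206.

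FW2.2 (Solyc02g090730.3, chromosome 2) was lower in both edited lines. Its level was 9.68, 10.3 and 11.5 normalized CPM in WT replicates 1 to 3, 4.17, 2.93 and 5.39 in the c2.5 libraries and 4.93, 4.03 and 4.01 in the c2.11 libraries, from 178 to 198 counts per WT library and 62 to 117 per line library. Each WT library was above all 6 line libraries, a separation in that direction that 24.9% of all tested genes showed, and the levels of the lines overlapped each other. The mean was 10.5 ± 0.919 for WT, 4.17 ± 1.23 for c2.5 and 4.33 ± 0.523 for c2.11 (SD over 3 libraries per genotype). Both lines together were 2.46-fold below WT, a log2 change of -1.30 ± 0.15 (SE, edgeR adjusted p = 1.05e-05). Of all tested genes, 5.28% had a lower value in that comparison. In bulk tissue, fewer cells that express a gene and less transcript per cell cannot be told apart.

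The decrease of FW2.2 had much the same size in each line. The log2 change against WT was -1.33 ± 0.18 in c2.5 (edgeR adjusted p = 5.74e-05) and -1.27 ± 0.18 in c2.11 (edgeR adjusted p = 7.13e-05), both against the same 3 WT libraries. The difference of c2.11 from c2.5 was 0.05 on the log2 scale, with a 95% interval of -0.36 to 0.47 (edgeR adjusted p = 0.935). Among the 4 tested members FW2.2 was the only one called in both lines, and 22.6% of all tested genes were likewise called lower in both. Its call held under each alternative setting and without any single library, and with total count scaling the change was -1.02 (edgeR adjusted p = 6.61e-05). Within c2.5 its log2 levels had an SD of 0.44, larger than in 93.9% of tested genes, while the WT libraries had an SD of 0.12.

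SlKLUH (Solyc03g114940.3, chromosome 3) was the member with by far the most counts, 1532 to 5670 per library, so that counting error was small, but its WT libraries spread widely. They had 206, 142 and 88.8 normalized CPM in replicates 1 to 3, a 2.32-fold range. The c2.5 libraries had 221, 268 and 212 and the c2.11 libraries 205, 183 and 175. Each c2.5 library was thus above each WT library, as in 29.7% of all tested genes, whereas WT replicate 1 was above all 3 c2.11 libraries. The SD of the log2 levels was 0.61 in WT, larger than in 94.5% of tested genes, and 0.18 in c2.5 and 0.12 in c2.11.

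The mean of SlKLUH was 146 ± 58.9 normalized CPM for WT, 233 ± 30.0 for c2.5 and 188 ± 15.7 for c2.11 (SD over 3 libraries per genotype), and the differences did not pass the threshold. The log2 difference from WT was 0.52 for both lines together (95% interval -0.09 to 1.14, edgeR adjusted p = 0.127), 0.68 in c2.5 (-0.02 to 1.38, edgeR adjusted p = 0.0969) and 0.36 in c2.11 (-0.33 to 1.06, edgeR adjusted p = 0.330). Without WT replicate 1 the values were 0.86 (edgeR adjusted p = 0.0123), 1.02 (0.0100) and 0.70 (0.0365), and all 3 passed. Without WT replicate 3 the value for both lines together was 0.27 (edgeR adjusted p = 0.223). Total count scaling gave 0.79 for both lines together (edgeR adjusted p = 0.0390) and 0.95 in c2.5 (0.0324), and DESeq2 called the gene in c2.5 (adjusted p = 0.0473). Between the lines, c2.11 was lower in each library than c2.5, yet the log2 difference of -0.31 did not pass (95% interval -1.01 to 0.38, edgeR adjusted p = 0.682), and 12.2% of all tested genes had every c2.11 library below every c2.5 library.

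CSR (Solyc11g071940.1, chromosome 11) was close to absent from the counts. It had 2 counts in c2.11 replicate 1, 1 count in c2.5 replicate 2 and 0 in each of the other libraries, the 3 WT libraries included. The pooled level over all 9 libraries was 0.0165 CPM of total counts, with an exact Poisson 95% interval of 0.0034 to 0.0482. In WT a count of 0 allows up to 0.0495, taken as 3 counts over the 3 libraries, so a difference between the genotypes was not detectable at this depth. These intervals cover counting error only.

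**Figure D2:**
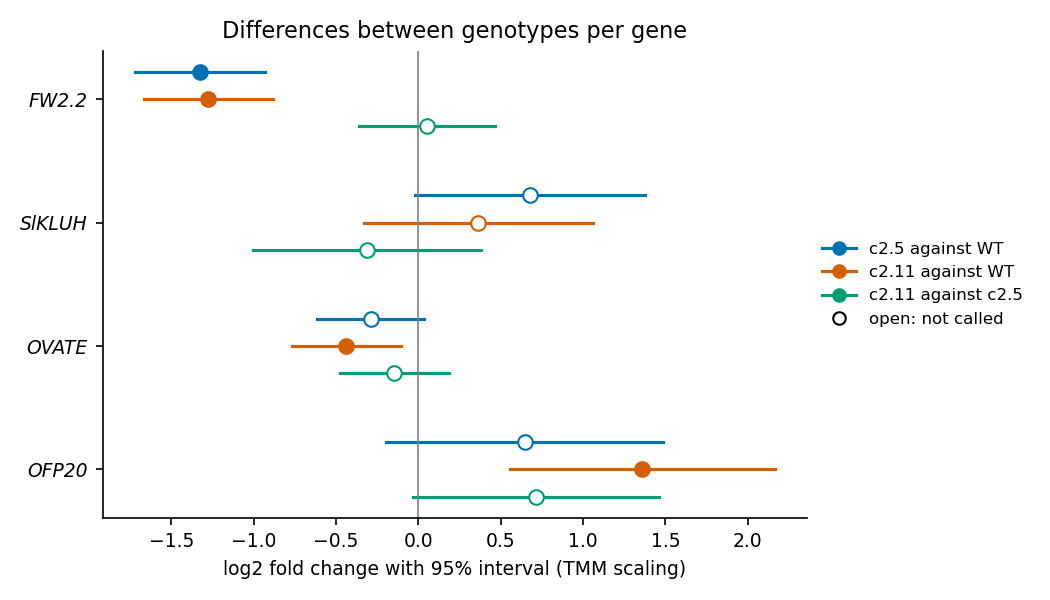
Log2 fold change (horizontal axis) of the 4 tested members for each line against WT and for c2.11 against c2.5. Lines are 95% intervals, filled points passed the adjusted p threshold of 0.05 and open points did not. FW2.2 is at -1.33 and -1.27 in c2.5 and c2.11, and the points for c2.11 against c2.5 are open for all 4 members.

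Among the shape genes, OVATE (Solyc02g085500.4, chromosome 2) was somewhat lower in the lines, and that call rests on the scaling. It had 3.48, 4.20 and 4.06 normalized CPM in WT replicates 1 to 3, 3.48, 2.93 and 3.18 in c2.5 and 2.70, 3.03 and 2.94 in c2.11. WT replicate 1 and c2.5 replicate 1 had nearly the same level, and otherwise the WT libraries were above the line libraries. In raw counts the genotypes overlapped, with 64 to 74 in WT, 62 to 75 in c2.5 and 58 to 66 in c2.11. Relative to total counts the mean was 3.44 ± 0.249 CPM for the 3 WT libraries and 3.24 ± 0.298 CPM for the 6 line libraries (SD). By line it was 3.42 ± 0.318 for c2.5, near that of WT, and 3.07 ± 0.169 for c2.11.

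The log2 change of OVATE in both lines together was -0.36 ± 0.13 (SE, edgeR adjusted p = 0.0299), with -0.44 ± 0.15 in c2.11 (edgeR adjusted p = 0.0273) and -0.29 ± 0.15 in c2.5 (edgeR adjusted p = 0.129). With total count scaling it was -0.08 for both lines together (edgeR adjusted p = 0.569) and -0.007 in c2.5 (edgeR adjusted p = 0.970). The call for both lines together also ended with DESeq2 (adjusted p = 0.0903), without a low-count filter (edgeR adjusted p = 0.0557) or with a replicate block (0.0503). It ended likewise without c2.11 replicate 1 (edgeR adjusted p = 0.0602), c2.5 replicate 2 (0.0579), c2.5 replicate 3 (0.0519), WT replicate 2 (0.118) or WT replicate 3 (0.0961). The call in c2.11 ended with total count scaling (-0.16, edgeR adjusted p = 0.356) and DESeq2 (adjusted p = 0.0823), and on leaving out c2.11 replicate 1 (edgeR adjusted p = 0.0883) or 3 (0.0558) or WT replicate 2 (0.0895) or 3 (0.0758). Between the lines OVATE did not pass (log2 difference -0.15, 95% interval -0.48 to 0.18, edgeR adjusted p = 0.719).

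OFP20 (Solyc10g076180.1, chromosome 10), the other ovate family member, was higher in c2.11. It had 1.09, 0.398 and 1.10 normalized CPM in WT replicates 1 to 3, 1.02, 2.03 and 1.01 in c2.5 and 2.65, 1.88 and 2.15 in c2.11. All c2.11 libraries were above all WT libraries, as in 30.9% of all tested genes, while 2 of the 3 c2.5 libraries lay within the WT range and only c2.5 replicate 2 reached the c2.11 range. The counts behind these levels were low, 7 to 20 in WT, 22 to 43 in c2.5 and 41 to 57 in c2.11. Relative to total counts the c2.5 libraries had 1.09 to 2.15 CPM and the WT libraries 0.346 to 0.990 CPM. The overlap of c2.5 with WT thus rests on the scaling.

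In c2.11 OFP20 was 2.57-fold above WT, a log2 change of 1.36 ± 0.37 (SE, edgeR adjusted p = 0.00766), and this call held without any single library (highest edgeR adjusted p = 0.0332) and under total count scaling. In c2.5 the log2 difference was 0.64 ± 0.39 and did not pass (95% interval -0.20 to 1.49, edgeR adjusted p = 0.188). With total count scaling the c2.5 difference was 0.92, which did not pass either (edgeR adjusted p = 0.0519). Against WT, the pair of lines showed a change of 1.0 ± 0.34 (edgeR adjusted p = 0.0232). It no longer passed without c2.5 replicate 2 (0.80, edgeR adjusted p = 0.0502) or WT replicate 2 (0.66, edgeR adjusted p = 0.101). The direct comparison of c2.11 with c2.5 gave 0.72 on the log2 scale (95% interval -0.03 to 1.46, edgeR adjusted p = 0.366), so a difference between the lines was not shown. Without c2.5 replicate 2 it was 1.12 (unadjusted p = 0.00914, edgeR adjusted p = 0.244).

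SUN (Solyc10g079240.2, chromosome 10) was too scarce for the test. It had 25, 7 and 9 counts in WT replicates 1 to 3, 5, 4 and 7 in c2.5 and 8, 5 and 4 in c2.11, or 0.760 ± 0.523 normalized CPM for WT, 0.248 ± 0.0683 for c2.5 and 0.263 ± 0.0971 for c2.11 (SD over 3 libraries per genotype). WT replicate 1 stood above the other 8 libraries. The other WT libraries, at 0.398 and 0.522 normalized CPM, were just above the highest line library (0.372), while in raw counts they overlapped the lines. When the low-count filter was dropped, SUN was lower in both lines together by -1.55 ± 0.44 on the log2 scale (SE, edgeR adjusted p = 0.00792). In that fit SUN was also called lower in c2.5 (-1.59, edgeR adjusted p = 0.0244) and in c2.11 (-1.51, edgeR adjusted p = 0.0282). Both were compared with the same WT libraries. Without WT replicate 1 the fit gave -0.82 for both lines together (edgeR adjusted p = 0.215), so the call for both lines together rests on WT replicate 1.

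Neither locule number gene could be followed at this depth. WUSCHEL (Solyc02g083950.3, chromosome 2) had 1 count in WT replicate 1, 1 count in c2.5 replicate 3 and 0 in the other 7 libraries. Its pooled level was 0.0110 CPM of total counts (exact Poisson 95% interval 0.0013 to 0.0398). CLV3 (Solyc11g071380.1, chromosome 11) had no count in any of the 9 libraries, which together held 181745410 counts, and a count of 0 allows up to 0.0165 CPM of total counts over all of them. CLV3 shares this with 8494 genes of the table, and CSR and WUSCHEL are among 2299 genes with 1 to 3 counts in all. No fold change is given for these genes, and their counts place no bound on a fold difference between genotypes.

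**Figure D3:**
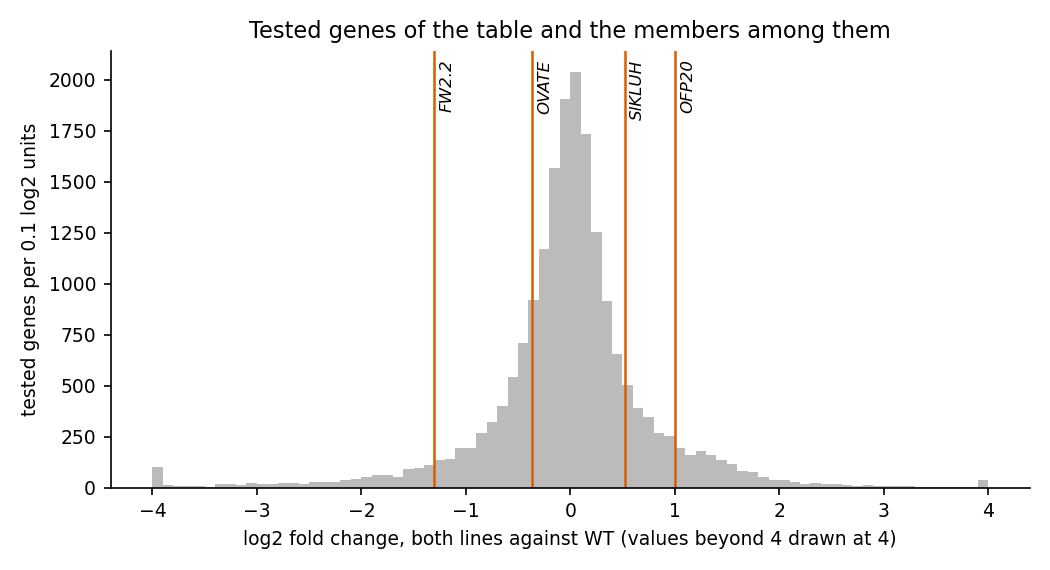
Number of tested genes (vertical axis) by log2 fold change of both lines against WT (horizontal axis, in steps of 0.1, with values beyond 4 drawn at 4). Orange lines mark the 4 tested members, with FW2.2 at -1.30, OVATE at -0.36, SlKLUH at 0.52 and OFP20 at 1.0.

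By line, 1 of the 4 tested members was called in c2.5 (FW2.2), beside 49.9% of all tested genes, and 3 were called in c2.11 (FW2.2, OVATE and OFP20), beside 54.6%. The order of the mean levels was WT, c2.11 and c2.5 from high to low for FW2.2, WT, c2.5 and c2.11 for OVATE, c2.5, c2.11 and WT for SlKLUH and c2.11, c2.5 and WT for OFP20. In none of these orders did the difference between the edited lines pass the threshold. Between the lines 0 of the 4 members passed, beside 1.29% of all tested genes. At an unadjusted edgeR p under 0.05 the count was also 0, beside 14.4% of all tested genes, with 0.0587 for OFP20 as the lowest p, and DESeq2 called 0, beside 2.28%. Among the alternatives OFP20 had an unadjusted p under 0.05 in 5 and SlKLUH in 1, the fit of the lines alone (0.0189), and none of these passed after adjustment. A member called in c2.11 and not in c2.5 is therefore not shown to respond differently in the lines.

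**Figure D4:**
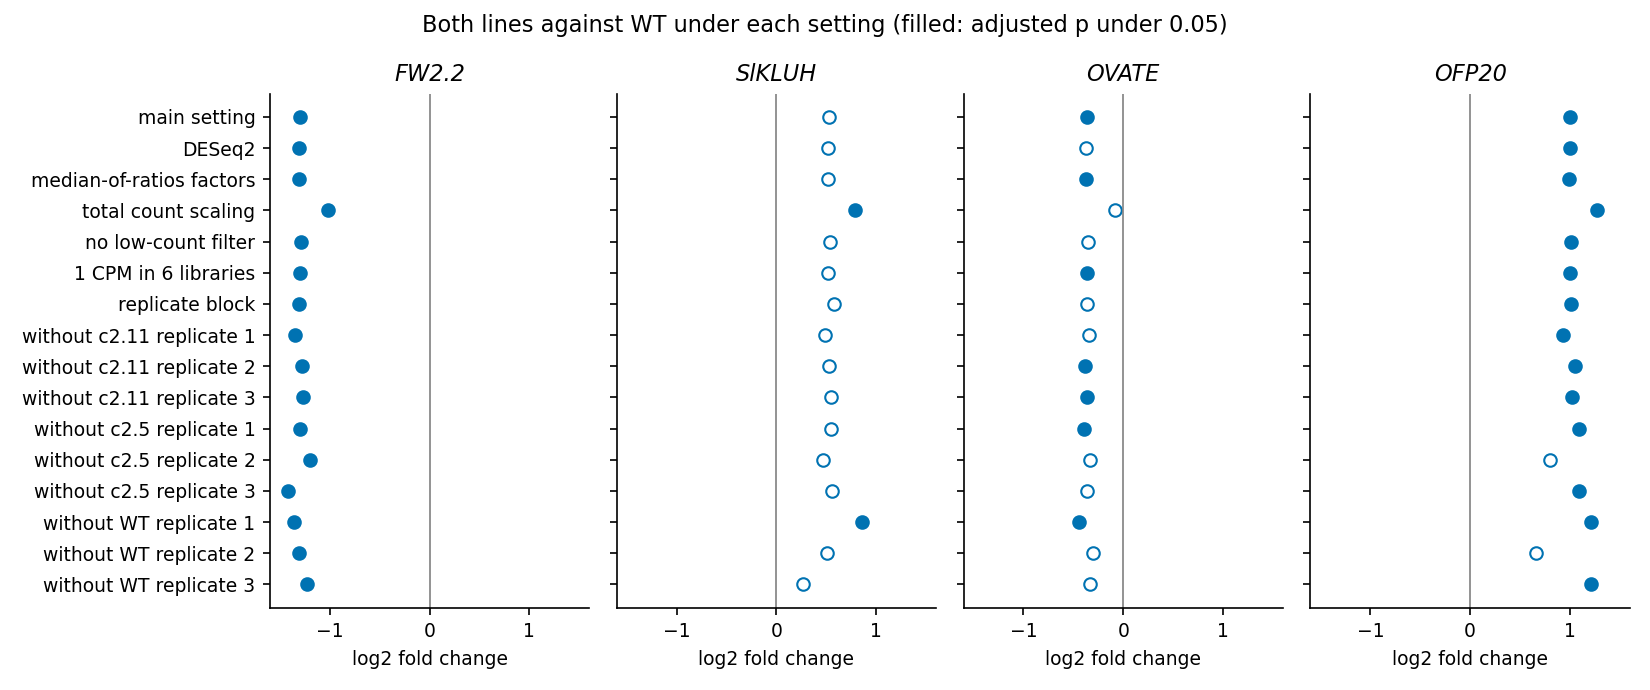
Log2 fold change of both lines against WT (horizontal axis) for the 4 tested members under each alternative setting and without each library (vertical axis). Filled points had an adjusted p under 0.05. FW2.2 is filled throughout, between -1.41 and -1.02, whereas SlKLUH is filled only with total count scaling and without WT replicate 1.

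The genes whose levels followed the members most closely were sought over the 9 libraries, by the root mean square difference of the log2 CPM after each gene was centred on its own mean. The search was made for FW2.2 and for OFP20, the members with the most counts among those called lower and higher. The genes were picked for small differences, so these lie below the median by construction. The levels given for them entered the choice. For FW2.2 the closest were Solyc03g044600.2 at 0.14 and Solyc01g150164.1 at 0.15, beside a median of 0.70 over all tested genes. Solyc03g044600.2 had 12.4 ± 1.0 normalized CPM for WT, 4.45 ± 0.583 for c2.5 and 4.87 ± 0.597 for c2.11 (SD over 3 libraries per genotype). For OFP20 the closest were Solyc10g079390.1 and Solyc09g098420.3, both at 0.32 beside a median of 0.77. Solyc10g079390.1 had 0.300 ± 0.113 normalized CPM for WT, 0.482 ± 0.179 for c2.5 and 0.942 ± 0.0629 for c2.11. Solyc09g098420.3 had 0.262 ± 0.178 for WT, 0.419 ± 0.0508 for c2.5 and 0.556 ± 0.0512 for c2.11. It was not called in both lines together (edgeR adjusted p = 0.106), and the levels of both genes were low. The sources used here do not say what these genes encode.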

How the data were processed

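RNA was sequenced from locular tissue of 3 WT, 3 c2.5 and 3 c2.11 pools of 6 fruits. The deposited table holds raw counts per gene, and the submitters' processing notes name FastQC and featureCounts. Aligner, genome build, annotation, strand setting and treatment of multiply mapped reads are not given in the sources. No coordinates are therefore printed, and reads of overlapping, antisense or near-identical genes cannot be told apart. Members were matched by the identifier before its version suffix. The members and their names were supplied as a list, and members, lists and tests were chosen with earlier results of these data known. A RefSeq table (assembly SLM_r2.1, 41476 genes) holds 0 of the table's identifiers. It lists 6 of the 8 members by symbol, each on the chromosome that the identifier's digits give. Marker lists and a list of further genes of these pathways were therefore not applied, and no sequences were used here.

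The test was that of edgeR 4.0.16 under R 4.3.3 (filterByExpr, TMM, robust glmQLFit and glmQLFTest) over all 9 libraries, with genotype as the only term, and p-values were adjusted over all 19358 tested genes. The standard error is the log2 fold change divided by the square root of F. Code was tested on simulated data. Members were all named, and genes most like a member were chosen by rule. Alternatives were DESeq2 1.42.0, median-of-ratios factors, total count scaling, other filters, fits of the compared genotypes, a minimum change of 2-fold, leaving out each library and the replicate number as a block. The SUN fits without a library or with total count scaling, both without a low-count filter, and the comparison of libraries by their distance were chosen after seeing the data. Replicates of a genotype differed by more than sampling noise (chi-square per degree of freedom of at least 4.56). The values were highest among the WT libraries, 11.5 to 23.3, beside 4.56 to 5.57 for c2.5 and 5.82 to 9.50 for c2.11.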

Additional observations from a re-analysis of the deposited data

How the results depend on the processing

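Counts limit SUN and OFP20, and CSR, WUSCHEL and CLV3 could not be read at this depth. FW2.2 kept its direction and call against WT under each alternative. Without single libraries its value for both lines together ran from -1.41 to -1.20. OVATE, at -0.36 for both lines together, lost its call with DESeq2 (-0.37), total count scaling (-0.085), no low-count filter (-0.35), the replicate block (-0.36) and a 2-fold minimum, and ran from -0.44 to -0.31 without single libraries. OFP20 ran from 0.66 to 1.21 and SlKLUH from 0.27 to 0.86 without single libraries, and SlKLUH passed with total count scaling (0.79). SlZFP2, at 0.76, lost its call with DESeq2 (0.76), median-of-ratios factors (0.76), the replicate block (0.78) and a 2-fold minimum (0.76), and ran from 0.60 to 1.05 without single libraries, 6 of which ended the call. The number of called members ran from 1 to 4 without single libraries for both lines together, with 1 (FW2.2) without c2.5 replicate 2 or WT replicate 2 and 4 without WT replicate 1, while 50.2 to 54.7% of all tested genes were called in those fits. For c2.5 it was 2 with DESeq2 or total count scaling (FW2.2 and SlKLUH), beside 8907 and 12849 of the 19358 tested genes. It was also 2 without a low-count filter (FW2.2 and SUN), beside 9725 of 25581 genes. Without single libraries it was 1 to 2 for c2.5, beside 43.4 to 49.2% of all tested genes. For c2.11 it was 3, and 2 to 4 without single libraries, beside 48.9 to 53.4%. Under the other alternatives it was also 2 to 4 for c2.11, while 2885 to 12802 of all genes were called. The difference of c2.11 from c2.5 in FW2.2, at 0.05, changed sign when c2.11 replicate 1 (-0.05) or, separately, replicate 2 of c2.5 (-0.15) was left out. It ran from -0.15 to 0.28 without single libraries and passed in none. SUN ran from -1.85 to -0.82 without single libraries. Over all genes, those that differ between the lines numbered 249, and 442 with DESeq2, 626 with the lines alone and 70 to 356 without single libraries. A 2-fold minimum left 2790 genes in the pair of lines, 2638 in c2.5, 2885 in c2.11 and 95 between the lines. The cause of these shifts was not tested, except that a 2-fold minimum removes smaller changes by construction. Same-numbered libraries of different genotypes correlated at -0.27 to 0.22 in their deviations from the genotype means. Differently numbered ones correlated at -0.26 to 0.34. These ranges overlap, and with 3 libraries per genotype they cannot settle whether same-numbered libraries belong together. The replicate block ended no call of a member against WT other than that of OVATE for both lines together.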

Other observations

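The extreme levels of several members fell in the same libraries, which were picked out for this after their values were seen, and no test was made. Among the WT libraries, replicate 1 had the lowest FW2.2 (9.68 normalized CPM) and OVATE (3.48) and the highest SlKLUH (206) and SUN (1.36). For OFP20 (1.09) it was close to WT replicate 3 (1.10). The WT counts differed little between libraries for FW2.2 (178 to 198) and OVATE (64 to 74). Over all tested genes WT replicate 1 was not nearer to the lines than WT replicate 2, with a root mean square log2 difference from the mean of the lines of 0.886 and 0.885, beside 0.926 for WT replicate 3. From the other libraries of its own genotype WT replicate 1 differed by 0.402, the highest such value of the 9 libraries. It was 0.360 and 0.324 for WT replicates 2 and 3. Among the c2.5 libraries, replicate 2 had the lowest FW2.2 (2.93) and the highest SlKLUH (268) of all 9 libraries and the highest OFP20 of its line (2.03). Its root mean square log2 difference from the other libraries of its line was 0.391, beside 0.288 and 0.377 for replicates 1 and 3. From WT it differed by 0.861, the lowest value of the line libraries. The other c2.5 libraries were at 0.911 and 0.937, and the c2.11 libraries at 0.891 to 0.938. The deviations of WT replicate 1 and c2.5 replicate 2 from their genotype means correlated at 0.34, the highest value among libraries of different genotypes. What sets these libraries apart was not tested.

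Genes beside the members were called at a share near that of all tested genes. Of the 5 tested genes on each side of each member, by the order of the identifiers, 40 of 80 were called in both lines together (edgeR adjusted p under 0.05), 18 higher and 22 lower, or 50.0% beside 57.1% of all tested genes. With 10 on each side the share was also 50.0% (80 of 160). By member the number called ran from 4 of 10 (FW2.2, OVATE and SUN) to 7 of 10 (WUSCHEL), and with 10 on each side from 9 to 12 of 20. CLV3 and CSR lie near each other on chromosome 11, with 53 genes between them in the table, 37 of which were tested.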
